A study of Mus musculus with 30 samples.

Results

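Apolipoproteins are the proteins of plasma lipoproteins, and most of them are made and secreted by hepatocytes. The 10 genes described here were chosen by name, as the rows *Apoa1*, *Apoa2*, *Apom*, *Apob*, *Apoa4*, *Apoa5*, *Apoc1*, *Apoc3*, *Apoe*, and *Apoh*, and all 10 were found among the 54429 genes of a time course and among the 55471 genes of a comparison of WT and *Egr-1* KO livers. All 10 passed the filter on low counts in both tables. The time course held 18 liver libraries of male wild-type C57BL/6J mice, 1 for each of ZT1, 5, 9, 13, 17, and 21 at 2, 6, and 12 months of age, where ZT (Zeitgeber time) counts hours from lights on. The genotype comparison held 12 liver libraries, 6 labelled WT and 6 labelled KO. The KO mice carried a homozygous floxed *Egr-1* and *Alb*-Cre, a Cre driven by the albumin promoter in hepatocytes, so the deletion is aimed at hepatocytes and not at the other cells of the liver, and littermate controls served as WT. The KO lines came from strain 129 and were crossed back to C57BL/6J. WT and KO livers were collected at times of highest (H) and lowest (L) Egr-1 protein, which were ZT13 and ZT17 at 2 months, ZT9 and ZT21 at 6 months, and ZT5 and ZT21 at 12 months. All mice were kept on chow in a light/dark cycle, and each condition had 1 library. The spread was therefore taken from the 6 pairs of WT and KO or from the 6 ZT of an age. For age in the WT and KO libraries, it was taken from single libraries without pairing. Whether a library pooled several mice was not stated.

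Lipoproteins carry triglyceride and cholesterol through the blood. Very low density lipoprotein (VLDL) is built in hepatocytes around 1 molecule of apolipoprotein B and is lipidated and secreted, whereas high density lipoprotein (HDL) forms when apolipoprotein A-I accepts phospholipid and cholesterol from cells through the transporter Abca1. Other apolipoproteins exchange between particles, where they activate or inhibit lipoprotein lipase or bind the receptors by which the liver takes particles up again. Egr-1 is an immediate-early transcription factor with zinc fingers that bind GC-rich DNA.

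The genes lie in groups on the mouse genome (build GRCm38, GENCODE M21). *Apoa1* (ENSMUSG00000032083, chr9:46228580-46230466, plus strand), *Apoc3* (ENSMUSG00000032081, chr9:46232933-46235636, minus strand), *Apoa4* (ENSMUSG00000032080, chr9:46240696-46243459, plus strand), and *Apoa5* (ENSMUSG00000032079, chr9:46268633-46271919, plus strand) share 43.3 kb of chromosome 9. The starts of *Apoa1* and *Apoc3* are 7.06 kb apart and those of *Apoc3* and *Apoa4* 5.06 kb. *Apoe* (ENSMUSG00000002985, chr7:19696109-19699188) and *Apoc1* (ENSMUSG00000040564, chr7:19689481-19692660) lie 6.53 kb apart on the minus strand of chromosome 7, beside *Apoc4* and *Apoc2*. The remaining genes stand alone, with *Apoa2* (ENSMUSG00000005681) at chr1:171225054-171226379, *Apoh* (ENSMUSG00000000049) at chr11:108343354-108414396, *Apob* (ENSMUSG00000020609) at chr12:7977648-8016835, and *Apom* (ENSMUSG00000024391) at chr17:35128997-35132050. Whether the reads were counted by strand was not stated. The antisense genes *Gm10680*, which overlaps *Apoa4*, and *Gm47544*, which overlaps *Apoa5*, were at 0 CPM in all libraries.

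Promoter sequence is shown for 3 of the genes that differed between WT and KO and for *Apoa5*, which shares a cluster with 2 of them and did not pass that test. Each runs on the plus strand up to the base before the GENCODE start of the gene, on GRCm38.p6 from RefSeq, at chr9:46228380-46228579 for *Apoa1*, chr12:7977427-7977647 for *Apob*, chr9:46240594-46240695 for *Apoa4*, and chr9:46268383-46268632 for *Apoa5*. Capitals mark a match to the TATA box or the E-box searched for below, which the sequences of *Apoa1* and *Apoa4* did not hold.
Apoa1: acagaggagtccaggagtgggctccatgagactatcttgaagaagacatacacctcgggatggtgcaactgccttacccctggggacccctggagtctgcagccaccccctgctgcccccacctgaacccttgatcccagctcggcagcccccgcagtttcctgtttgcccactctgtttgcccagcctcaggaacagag
Apob: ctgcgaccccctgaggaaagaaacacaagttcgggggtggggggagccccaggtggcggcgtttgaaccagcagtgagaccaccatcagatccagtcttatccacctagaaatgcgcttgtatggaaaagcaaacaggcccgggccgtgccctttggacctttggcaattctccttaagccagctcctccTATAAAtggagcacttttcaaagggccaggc
Apoa4: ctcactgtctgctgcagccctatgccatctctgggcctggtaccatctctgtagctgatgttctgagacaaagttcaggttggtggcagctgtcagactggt
Apoa5: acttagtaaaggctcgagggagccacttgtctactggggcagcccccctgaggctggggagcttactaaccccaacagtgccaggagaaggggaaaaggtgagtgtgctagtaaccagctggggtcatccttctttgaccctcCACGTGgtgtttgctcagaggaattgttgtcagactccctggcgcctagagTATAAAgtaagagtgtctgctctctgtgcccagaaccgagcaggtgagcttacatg
RefSeq windows of the 250 bases before a start were at hand for 8 of the 10 genes (12 windows), and not for *Apoc1* and *Apoc3*. The RefSeq start of *Apom* lies inside the GENCODE gene, so its window is not shown. Both strands were searched for 6 motifs, whose matches may overlap. The Egr-1 sites GCGTGGGCG and GCGGGGGCG were in 0 of the 12 windows and in 0.536% and 2.57% of all 32851 RefSeq windows, and the GC box GGGCGG was in 0 of 12 and in 32.7% of all. The nuclear receptor half-site AGGTCA was in 2 of 12 windows, of *Apoa2* and *Apoh* (14.0% of all). Neither match lay in a window that ends at the GENCODE start. In *Apoa2*, it lay at chr1:171221326-171221331, in the window of a RefSeq start farther upstream. In *Apoh*, it lay inside the GENCODE gene, 51728 bases past its start. The TATA box TATAAA was in 5 windows (12.4% of all). It began 31 bases before the GENCODE start in *Apob*, 56 in *Apoa5*, and 212 in *Apoa2*. In *Apoe*, the matches lay inside the GENCODE gene, 467 and 471 bases past its start. The E-box CACGTG was in both windows of *Apoa5* (6.02% of all), 107 bases before the start.

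Levels are given as CPM, the count of a gene scaled to a common library size with edgeR's TMM factors. Total counts ranged from 13375377 to 16557378 in the time course and from 13747706 to 21748956 in the genotype libraries, and the 10 genes took 2.96% to 4.86% and 4.58% to 6.02% of them. At this depth, counting error was small. The lowest level of any of the 10 genes in the time course, 48.2 CPM of *Apoa4* at 12 months ZT9, rested on 598 counts and had an exact Poisson 95% interval of 44.4 to 52.2, which covers counting error only.

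Hepatocyte markers were high in all livers, at a sum of 37791 to 124082 CPM over *Alb*, *Ttr*, *Cps1*, *Tat*, and *Hpx*, and markers of adipocytes were near 0. *Egr1* RNA was checked against the labels first. It was lower in the library labelled KO in 4 of 6 pairs, but at 2 months L it was 1.45 CPM in WT (exact Poisson 95% interval 0.898 to 2.22) and 7.36 CPM in KO (6.08 to 8.83), and at 12 months H it was 5.87 CPM (4.87 to 7.02) and 6.15 CPM (5.12 to 7.32). At 2 months H, 1 of the 4, the intervals overlapped, at 2.54 CPM in WT (1.89 to 3.35) and 1.96 CPM in KO (1.41 to 2.66). Over the 6 pairs, *Egr1* was not called by the edgeR test used below (log2 fold change -1.76, SE 0.79, adjusted p = 0.313). WT and KO below therefore name the labels of the libraries. In the time course, the 6-month livers stood apart in the acute-phase gene *Saa1*, at 5250.1 to 22385 CPM against 25.5 to 1549 CPM at the other ages. The library of 6 months ZT5 had the highest *Saa1* and the lowest correlation with the rest.

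To compare genes with each other, CPM were divided by the summed length of a gene's exons in kb (FPKM). Over the 18 time-course libraries, *Apoa2*, the other main protein of HDL, was the highest of the 10 genes at 10993 FPKM ± 1824 (SD, n = 18) and stood at rank 7 of 53775 genes. *Apoa1*, the main protein of HDL and activator of cholesterol esterification, followed at 6229 ± 1039, and *Apoe*, a ligand of the LDL receptor, at 5841 ± 1080. *Apoa1* and *Apoe* did not separate, since *Apoa1* was above *Apoe* in 11 of 18 libraries. Next came *Apoc1*, a small exchangeable apolipoprotein, at 3793 ± 790, *Apoc3*, an inhibitor of lipoprotein lipase, at 1734 ± 262, and *Apoh*, a plasma glycoprotein that binds phospholipid, at 860 ± 119. *Apoa5*, which promotes the clearance of triglyceride, at 340 ± 65.7, and *Apob* at 295 ± 58.7 overlapped as well, with *Apoa5* higher in 13 of 18 libraries. *Apom*, which carries sphingosine-1-phosphate on HDL, was at 161 ± 18.9 FPKM, and *Apoa4*, made in intestine and in mouse liver, was lowest at 48.6 ± 25.8 FPKM (rank 955). The ranges of all other neighbours in this order except *Apoe* and *Apoc1* did not touch, and *Apoe* was above *Apoc1* in 18 of 18 libraries. Relative to its mean, *Apoa4* had the largest SD of the 10 genes.

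The comparison of WT and KO asked how deletion of *Egr-1* in hepatocytes changed the liver transcriptome. Among the HDL genes, *Apoa1* and *Apom* fell in KO, and *Apoa2* did not pass the test. Among the genes of triglyceride-rich particles, *Apob* fell, *Apoa4* rose, and *Apoa5*, *Apoc1*, and *Apoc3* did not pass. With edgeR's quasi-likelihood F-test over the 6 pairs, 4 of the 10 genes were called at a Benjamini-Hochberg adjusted p under 0.05 (3 lower and 1 higher), where 1.58% of the 13639 genes tested were called (0.792% lower and 0.785% higher). The median log2 fold change was -0.18 over the 10 genes and -0.01 over all genes tested.

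*Apoa1* ranged from 6164 to 11576 CPM in WT (median 9386) and from 4062 to 7295 CPM in KO (median 5226). Its KO library was below the WT library of the same age and time in 6 of 6 pairs, although the 2 groups overlapped. On the log2 scale, the smallest difference was at 2 months H (-0.50, 10325 CPM in WT and 7295 CPM in KO) and the largest at 12 months L (-1.06, 8447 and 4062 CPM). Over the 6 pairs, *Apoa1* was 0.589-fold of WT, a log2 fold change of -0.76 (SE 0.10, adjusted p = 0.00948), rank 14 of all genes by p. *Apom* ranged from 105 to 263 CPM in WT (median 205) and from 71.9 to 202 CPM in KO (median 104). It was lower in KO in 6 of 6 pairs, with the largest difference on the log2 scale at 6 months L, from 216 to 89.6 CPM, and its log2 fold change was -0.73 (SE 0.11, adjusted p = 0.0149). *Apoa2* was at 7465 to 10744 CPM in WT and 7644 to 9026 CPM in KO, lower in KO in 4 of 6 pairs, and its log2 fold change was -0.12 (SE 0.11, adjusted p = 0.627). The lower level in KO was thus found for 2 of the 3 HDL genes, and in the third the pairs differed in sign.

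**Figure D1:**
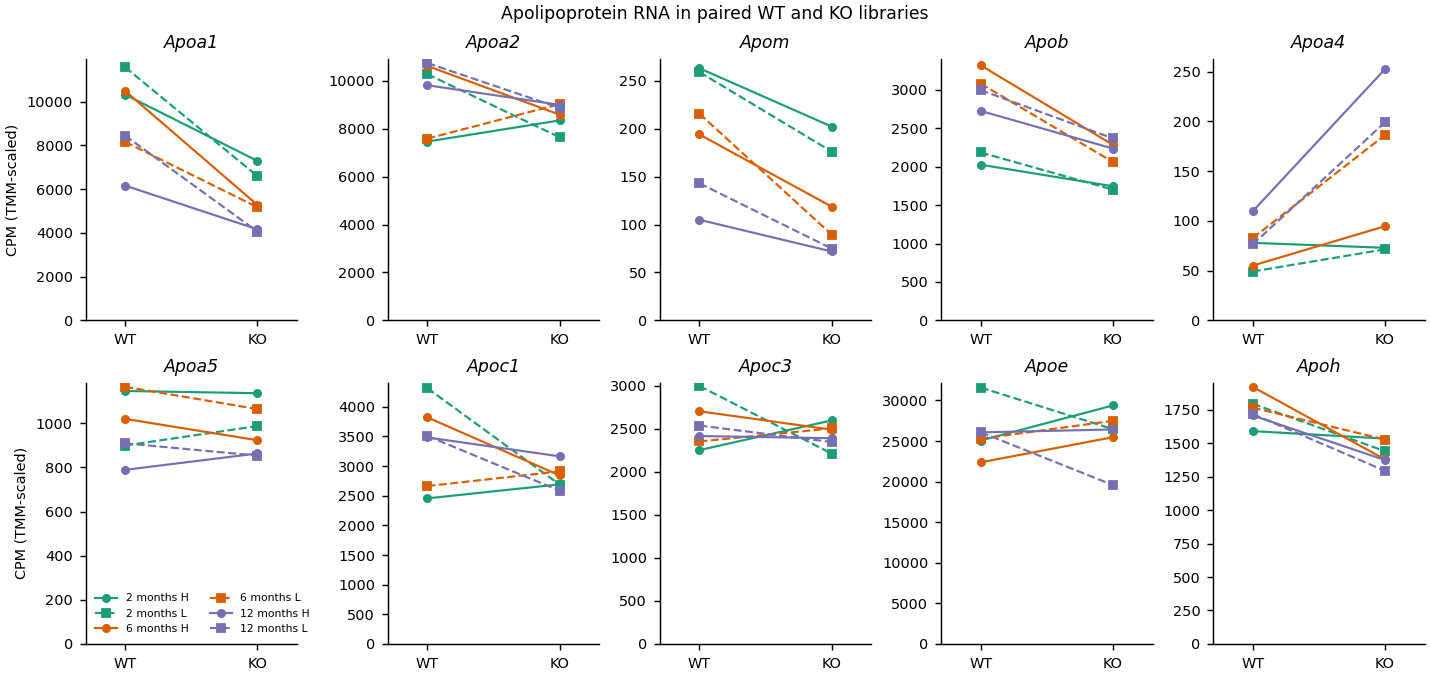
Levels of the 10 genes in CPM (TMM-scaled, y axis from 0) in the 6 pairs of WT and KO libraries, with 1 line for each pair of the same age (colour) and collection (circle and solid line, H; square and dashed line, L). The lines of Apoa1, Apom, Apob, and Apoh go down in 6 of 6 pairs and those of Apoa4 go up in 5 of 6.

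*Apob*, the structural protein of VLDL and LDL, ranged from 2027 to 3321 CPM in WT (median 2863) and from 1702 to 2370 CPM in KO (median 2150). It was lower in KO in 6 of 6 pairs by between -0.58 and -0.21 on the log2 scale, and its log2 fold change was -0.39 (SE 0.08, adjusted p = 0.0384). *Apoa4* went the other way. It was at 49.1 to 110 CPM in WT (median 77.2) and at 71.4 to 253 CPM in KO (median 140), higher in KO in 5 of 6 pairs and 1.79-fold overall (log2 fold change 0.84, SE 0.17, adjusted p = 0.0419). The exception was 2 months H, at 78.0 CPM in WT and 72.9 CPM in KO. At 12 months, *Apoa4* went from 110 to 253 CPM at H and from 76.4 to 199 CPM at L, so that the 3 highest libraries of the 12 were KO at 6 months L, 12 months H, and 12 months L. *Apoa5* was at a log2 fold change of -0.02 (SE 0.07, adjusted p = 0.925). *Apoc3* was at -0.06 (SE 0.09, adjusted p = 0.785). *Apoc1* was at -0.24 (SE 0.12, adjusted p = 0.348), with the KO library lower in 4 pairs and higher in 2.

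*Apoe*, the gene with the highest CPM of the 10, ranged from 22374 to 31592 CPM in WT and from 19580.1 to 29383 CPM in KO, and the log2 fold change was -0.02 (SE 0.11, adjusted p = 0.957). *Apoh* was at 1590 to 1921 CPM in WT and 1294 to 1534 CPM in KO. It was the single gene of the 10 in which the 6 WT and 6 KO libraries did not overlap, as in 0.909% of all genes tested, but its log2 fold change of -0.30 (SE 0.08) had an adjusted p of 0.0850 and was not called.

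**Figure D2:**
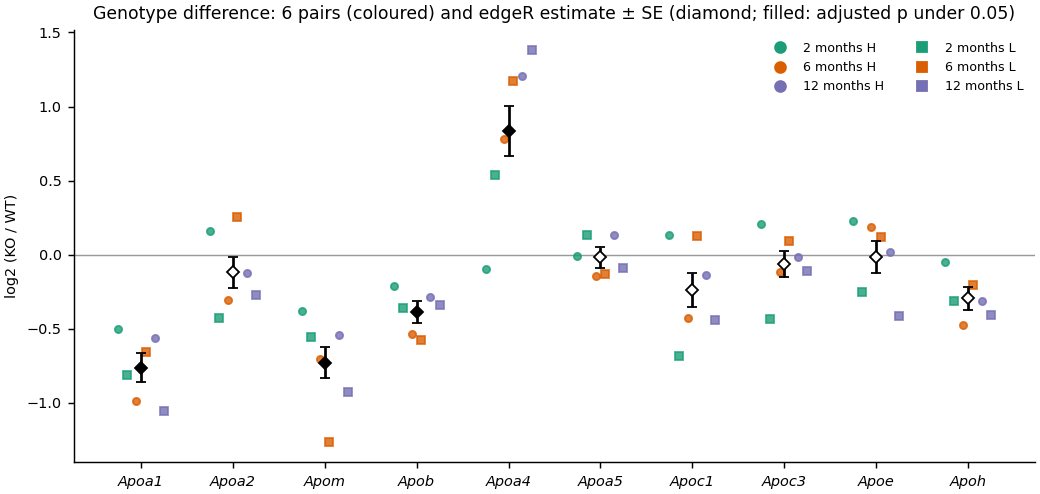
Difference between KO and WT on the log2 scale (y axis) for each gene (x axis), as the 6 pairs (coloured by age; circles H, squares L) and the edgeR estimate with its standard error (diamond, filled where the adjusted p was under 0.05). The filled diamonds are Apoa1 at -0.76, Apom at -0.73, Apob at -0.39, and Apoa4 at 0.84.

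The genes beside the 10 were examined in the clusters of chromosomes 9 and 7, and not around *Apob* and *Apom*. On chromosome 9, *Apoa1* fell and *Apoa4* rose, while *Apoc3*, which lies between their starts, was not called, and neither were *Sik3*, *Zpr1*, and *Bud13* on the flanks (log2 fold changes -0.07, -0.22, and -0.07). On chromosome 7, where neither *Apoe* nor *Apoc1* was called, *Apoc4* was at -0.15, *Apoc2* at -0.23, and *Tomm40* at -0.00, and none was called.

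These calls depended on the fit and on single pairs. *Apoa1* passed when any 1 pair was left out, and *Apom* in all but the fit without 12 months L (adjusted p = 0.0645), whereas *Apob* was lost in each of these 6 fits and *Apoa4* in 5. Without the 2 pairs in which *Egr1* was not lower in KO, 0 of the 10 genes and 9 of all genes were called, and the log2 fold changes were -0.80 for *Apoa1*, -0.82 for *Apom*, -0.42 for *Apob*, and 0.82 for *Apoa4*. Without the block for pairs, *Apoa1* and *Apom* were called with age and collection as additive terms, and 0 genes of the 10 with genotype alone.

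Other RNA differed between the genotypes as well. *Alb*, whose promoter drives the Cre, was at 52849 to 66555 CPM in WT and 26611 to 35820.3 CPM in KO, lower in 6 of 6 pairs (log2 fold change -0.88, SE 0.11, adjusted p = 0.0100), and the other hepatocyte markers *Ttr*, *Cps1*, *Tat*, and *Hpx* were not called. Summed markers of Kupffer cells and macrophages were at 227 to 267 CPM in WT and 252 to 345 CPM in KO, with 0 of 5 genes called by edgeR (4 at an unadjusted p under 0.05). Many genes reached this unadjusted level, since *Egr1* at an unadjusted p of 0.0504 by edgeR stood at rank 2194 of the 13639 genes tested. Those of stellate cells and fibroblasts were at 218 to 378 CPM in WT and 256 to 400 CPM in KO. Of these, 1 of 5 was called, the collagen gene *Col1a1* (0.51, SE 0.09, adjusted p = 0.0273), which was higher in KO. *Dcn* (0.29) and *Pdgfrb* (0.32) were higher in KO at an unadjusted p under 0.05, and *Lrat* (0.07) and *Reln* (0.10) did not reach it. Endothelial markers were at 133 to 183 CPM and 125 to 182 CPM, with 0 of 5 called (1 at an unadjusted p under 0.05). In bulk liver, fewer hepatocytes and less RNA per hepatocyte cannot be told apart. Transcript length also moved with some pairs. At 2 months L, genes with under 1500 bases of exon had a median deviation of 0.11 on the log2 scale in WT and -0.07 in KO, and the short genes *Apoa2*, *Apoc1*, and *Apoc3* had differences between KO and WT of -0.43, -0.68, and -0.44 there. At 6 months L, short genes were at -0.13 in WT and -0.07 in KO, and the same 3 genes were at 0.25, 0.13, and 0.09. At 2 months H, short genes were at -0.10 in WT and -0.10 in KO, and these 3 genes were at 0.16, 0.13, and 0.21. *Apoa1* and *Apom*, also under 1500 bases, were at -0.81 and -0.56 at 2 months L and at -0.66 and -1.27 at 6 months L. With an offset for each library's trend with length, *Apoa1* (-0.72), *Apom* (-0.68), *Apob* (-0.41), and *Apoa4* (0.86) were still called and *Apoc1* was at -0.17. The part of *Alb*, the markers of macrophages and stellate cells, and length in the differences between WT and KO was otherwise not tested.

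Whether the genotype effect differed between ages or between H and L was tested directly, and 0 of the 10 genes were called in either test (0.0147% and 0.00733% of all genes called; 0 of the 10 with DESeq2 and limma-voom as well). With edgeR, 1 of the 10 genes, *Apoa4*, was under an unadjusted 0.05 for ages (adjusted p = 1.00), and 0 for H and L. The mean log2 difference of *Apoa4* between KO and WT was 0.22 over the pairs of 2 months, 0.98 over those of 6 months, and 1.29 over those of 12 months.

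Other genes that act on lipoproteins were tested between WT and KO in the same fit, in which 1.58% of all genes were called. Of 13 genes of HDL formation and remodelling, 1 was called, *Abca1*, the transporter that lipidates apolipoprotein A-I, which ranged from 106 to 112 CPM in WT and from 83.3 to 91.6 CPM in KO (log2 fold change -0.32, SE 0.05, adjusted p = 0.0232). Of 12 tested further apolipoproteins, *Apol9a* (0.83, SE 0.10, adjusted p = 0.00793) and *Apol9b* (0.36, SE 0.07, adjusted p = 0.0446) rose. These near-identical genes share reads, and their split is uncertain. Of 16 genes of VLDL assembly and secretion, 12 of lipoprotein receptors and uptake, 8 of lipoprotein lipase regulation, and 17 transcription factors of apolipoprotein genes, none was called by edgeR. *Egr1* was 1 of these 17 transcription factors. The medians of these 6 lists lay between -0.21 and -0.06.

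The 3 genes whose levels followed *Apoa1* most closely over the 12 genotype libraries, among 7804 genes at a mean of at least 10 CPM, were the carboxylesterase *Ces2a* (Pearson r of log2 CPM 0.97), the retinol dehydrogenase family gene *Rdh16f2* (0.96), and complement factor I, *Cfi* (0.95). These values describe 12 libraries that share age and genotype.

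The time course asked how the liver transcriptome changes with age over a whole day. In the time course, apolipoprotein RNA was lowest at 6 months for several of the 10 genes and higher at 12 months. From 2 to 6 months, *Apoc3* and *Apoe* fell, and from 6 to 12 months *Apoa1*, *Apoa2*, *Apoc1*, *Apoc3*, and *Apoe* rose, whereas *Apoa4* fell. From 2 to 12 months, only *Apoa4* passed the test, and it fell.

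Between 2 and 6 months, edgeR with ZT as a block called 2 of the 10 genes, both lower, where 13.7% of 13361 genes were called (6.83% higher and 6.89% lower). The median log2 fold change was -0.17 over the 10 genes and 0.00 over all. *Apoe* ranged from 10555 to 15425 CPM at 2 months (median 13744) and from 8757 to 12241 CPM at 6 months (median 10361), lower at 6 of 6 ZT (log2 fold change -0.38, SE 0.11, adjusted p = 0.0260). *Apoc3* ranged from 1404 to 2167 CPM (median 1968) and from 1343 to 1891 CPM (median 1465), also lower at 6 of 6 ZT (log2 fold change -0.33, SE 0.09, adjusted p = 0.0290). The other 8 genes lay between -0.22 and 0.02. None of the 10 genes separated completely between these ages, as 4.58% of all genes did.

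Between 6 and 12 months, 6 of the 10 genes were called, 5 higher and 1 lower, where 16.4% of all genes were called (8.79% higher and 7.59% lower). The median log2 fold change was 0.31 over the 10 genes and -0.00 over all. *Apoa2* separated completely, from 4319 to 6233 CPM at 6 months to 6355 to 7316 CPM at 12 months (log2 fold change 0.43, SE 0.12, adjusted p = 0.0198), as did 4.48% of all genes. *Apoa1* went from 5399 to 8080.2 CPM to 7906 to 9928 CPM (0.41, SE 0.11, adjusted p = 0.0192), higher at 6 of 6 ZT. *Apoe* reached 10646 to 17070 CPM at 12 months (0.44, SE 0.11, adjusted p = 0.00983). *Apoc1*, its neighbour on chromosome 7, went from 1862 to 3365 CPM to 2868 to 3531 CPM (0.48, SE 0.12, adjusted p = 0.0142). *Apoc3* returned to 1648 to 2067 CPM (0.30, SE 0.09, adjusted p = 0.0397). *Apoh* was higher at 6 of 6 ZT at 12 months and narrowly missed the threshold (0.29, SE 0.10, adjusted p = 0.0506). *Apoa5*, *Apom*, and *Apob* did not pass (0.32, -0.14, and -0.07).

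*Apoa4* had the largest log2 fold change of the 10 genes between ages of the time course. It was at 70.4 to 204 CPM at 2 months (median 91.6), 66.3 to 213 CPM at 6 months (median 71.2), and 48.2 to 85.1 CPM at 12 months (median 54.97). The 12-month library was the lower at 6 of 6 ZT against each of the younger ages. Against 2 months its log2 fold change was -0.74 (SE 0.13, adjusted p = 0.00152), and against 6 months -0.57 (SE 0.13, adjusted p = 0.00692). It was the single gene of the 10 called between 2 and 12 months, where 11.9% of all genes were called (6.61% higher and 5.27% lower), and none of the 10 separated completely (4.15% of all genes). *Apoh* (0.30, SE 0.10, adjusted p = 0.0502) was higher at 6 of 6 ZT and *Apom* (-0.21, SE 0.08, adjusted p = 0.0797) lower at 6 of 6, and neither passed.

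**Figure D3:**
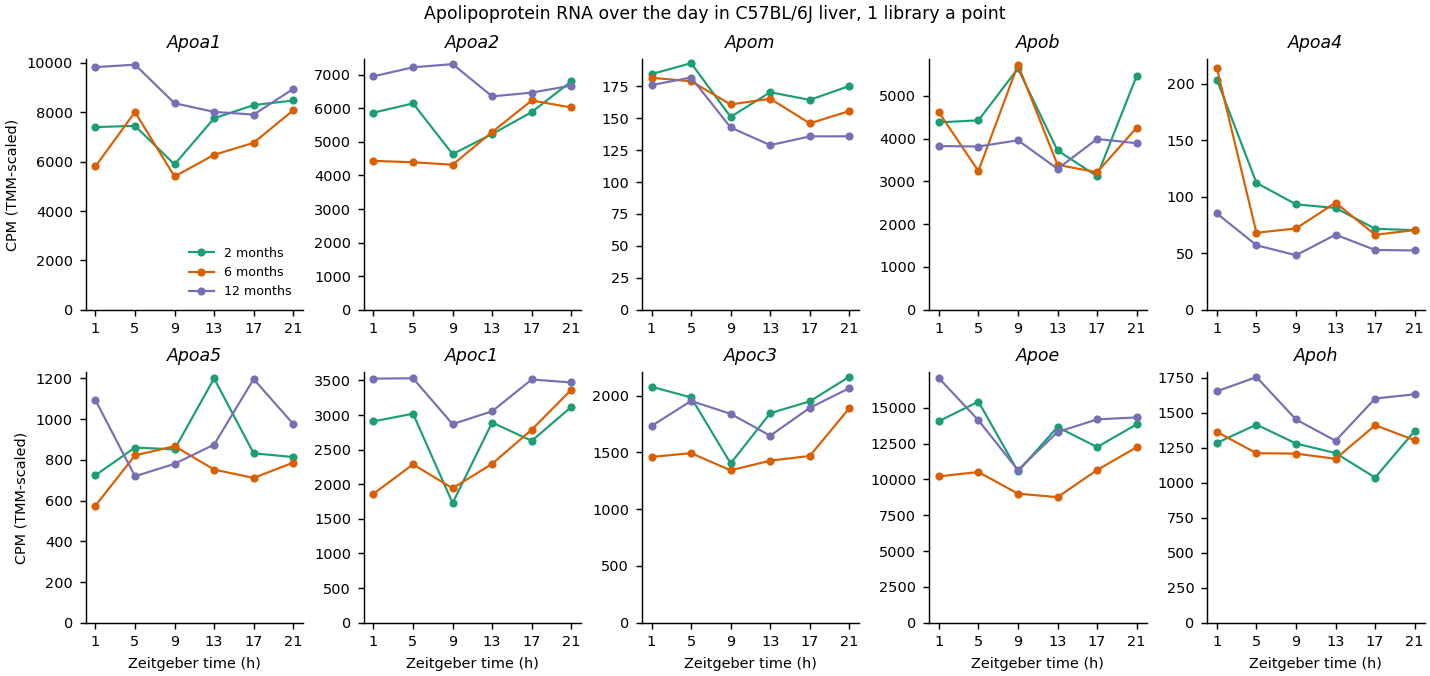
Levels of the 10 genes in CPM (TMM-scaled, y axis from 0) against Zeitgeber time in h (x axis) at 2, 6, and 12 months, with 1 library at each point. Apoa4 is highest at ZT1 at each age and lies lowest at 12 months, and Apoe and Apoc3 lie lowest at 6 months at 6 of 6 times.

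Several of these age calls were lost in other fits. Without the block for ZT, 0, 2, and 0 of the 10 genes were called for 6 against 2, 12 against 6, and 12 against 2 months. Leaving out ZT1, ZT5, or ZT13 took the count for 6 against 2 months to 0, and leaving out ZT1 took that for 12 against 6 months to 1, *Apoa4*, and leaving out ZT9 to 3, *Apoa4*, *Apoc1*, and *Apoe*. *Apoa4* passed in each of the 6 fits without 1 ZT in both comparisons. The low 6-month values were seen in the livers with 5250.1 to 22385 CPM of *Saa1*, and *Saa2* (8.23) and *Saa4* (1.09) rose from 2 to 6 months as well on the log2 scale. Markers of Kupffer cells and macrophages were at 262 to 358 CPM at 6 months and 202 to 284 CPM at 12 months, with 5 of 5 genes lower at 12 months. Bile duct markers were at 32.1 to 142 CPM and 13.6 to 22.8 CPM, with 1 of 3 tested genes called, *Spp1* (-3.02). From 6 to 12 months, *Krt19* (-0.38, adjusted p = 0.389) and *Krt7* (-0.51, adjusted p = 0.272) were not called by edgeR. Of the hepatocyte markers, *Alb* (0.55, adjusted p = 0.0358), *Ttr* (0.59, adjusted p = 0.0055), and *Cps1* (0.40, adjusted p = 0.0327) rose from 6 to 12 months on the log2 scale and *Hpx*, also an acute-phase gene, fell (-1.84). Endothelial markers went from 188 to 301 CPM to 139 to 226 CPM, with 2 of 5 lower, *Stab2* (-0.45) and *Clec4g* (-0.43). Markers of stellate cells and fibroblasts went from 259 to 335 CPM to 328 to 467 CPM, with *Reln* (0.82), *Dcn* (0.40), and *Lrat* (0.41) higher and *Col1a1* (-1.24) lower. From 2 to 6 months, edgeR called *Krt19* (1.09, adjusted p = 0.0209), *Krt7* (1.09, adjusted p = 0.0307), and *Spp1* (1.57, adjusted p = 0.00182) higher. *Hpx* (1.85) was called higher and *Cps1* (-0.83) lower, and *Alb*, *Ttr*, and *Tat* were not called. Of the markers of macrophages, endothelium, and stellate cells, *Cd68* (0.40) and *Clec4g* (0.50) were called higher and *Reln* (-0.35) lower. The part of these in the differences was not tested. Without the 6-month ZT5 library, *Apoe* was still called between 2 and 6 months and *Apoc3* was not (adjusted p = 0.0572).

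Among genes that act on lipoproteins, 5 of 16 genes of VLDL assembly and secretion were lower at 6 than at 2 months and 1 was higher, where 6.89% and 6.83% of all genes were. The former included the triglyceride hydrolase *Ces1g* (-0.85, SE 0.14, adjusted p = 8.8e-04), the *Apob* RNA editing factor *A1cf* (-0.54, SE 0.09, adjusted p = 0.00161), and *Ces3a* (-0.59, SE 0.11, adjusted p = 0.00189). *Ces1g* (0.85) and *A1cf* (0.39) were higher again at 12 than at 6 months, with the COPII GTPase gene *Sar1b* (0.47). Hepatic lipase, *Lipc*, which remodels HDL, was 143 to 274 CPM at 2 months, 88.4 to 147 CPM at 6 months (-0.83, SE 0.14, adjusted p = 0.00109), and 137 to 219 CPM at 12 months. *Pltp*, the phospholipid transfer protein of HDL, rose at 12 months, from 16.6 to 21.1 CPM at 2 months to 32.3 to 102 CPM (1.71, SE 0.21, adjusted p = 7.0e-05). The HDL receptor *Scarb1* fell from 2 to 6 months (-0.36, SE 0.09, adjusted p = 0.0175) and from 2 to 12 months (-0.54, SE 0.09, adjusted p = 0.00153). Of the transcription factors, 0 of 17 were called between 6 and 12 months by edgeR (16.4% of all genes), 3 were lower at 6 than at 2 months (*Foxa2*, *Ppara*, and *Nr0b2*; 6.89% of all genes), and *Creb3l3*, a hepatocyte activator of apolipoprotein genes, was lower at 12 than at 2 months (-0.45, SE 0.12, adjusted p = 0.0232; 5.27% of all genes).

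The genotype libraries gave a further look at age, at times of collection that differed between ages. There, 4 of the 10 genes differed between 12 and 2 months, with genotype as a term and no term for pair or collection. In this fit, 15.5% of 14097 genes were called (7.16% higher and 8.36% lower). *Apom* fell to 0.426-fold (log2 fold change -1.23, SE 0.13, adjusted p = 2.1e-04) and *Apoa1* to 0.626-fold (-0.67, SE 0.12, adjusted p = 0.00272). *Apob* rose (0.43, SE 0.09, adjusted p = 0.00656), and so did *Apoa4* (1.08, SE 0.28, adjusted p = 0.0208). These were the same 4 genes that differed between WT and KO, in a test on the same 12 libraries, where *Apob* fell. *Apoa4* rose on the log2 scale by 0.49 at H and 0.64 at L in WT, and by 1.79 and 1.48 in KO. Without the pair of 12 months H, *Apoa1* and *Apoa4* were lost. *Apoa4* was lost without 2 months L as well, and *Apob* without 2 months H or 12 months L. Age and ZT cannot be told apart in these libraries.

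**Figure D4:**
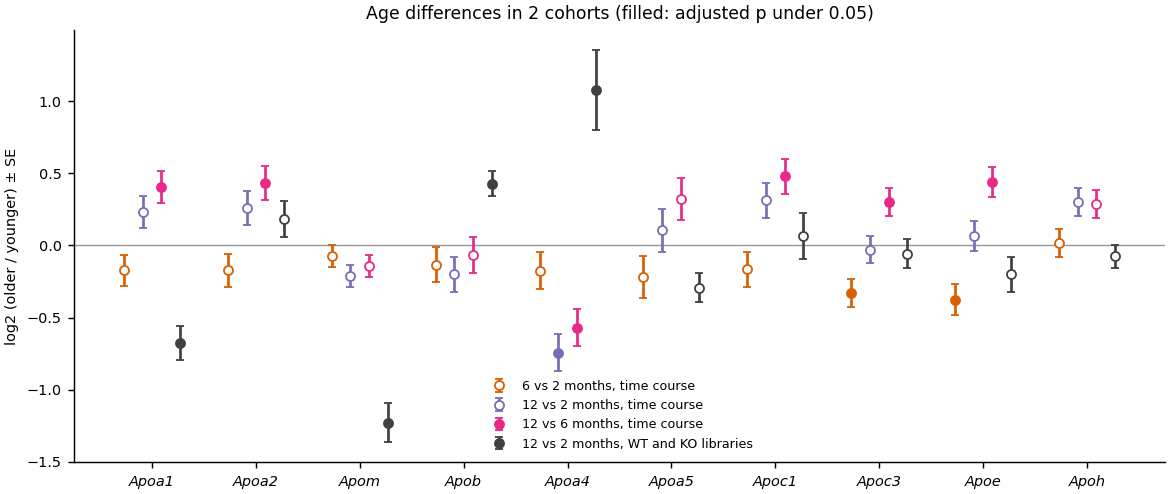
Log2 fold changes between ages (y axis, with standard errors) for each gene (x axis), from 3 comparisons of the time course and from the 12 WT and KO libraries (grey), filled where the adjusted p was under 0.05. Between 12 and 2 months, Apoa1, Apoa4, Apob, Apoa5, Apoe, and Apoh lie on opposite sides of 0 in the 2 cohorts, where Apoa4 is the only one of them called in both.

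For libraries of the same age and ZT, the values of both cohorts can be set side by side, although each was scaled on its own and the difference between cohorts was not tested. At 2 months, *Apoa1* was 7757 CPM (ZT13) and 8291 CPM (ZT17) in the time course and 10325 and 11576 CPM in WT. At 6 months it was 5399 CPM (ZT9) and 8080.2 CPM (ZT21) in the time course and 10492.5 and 8164 CPM in WT. At 12 months it was 9928 CPM (ZT5) and 8946 CPM (ZT21) in the time course and 6164 and 8447 CPM in WT. *Apoa1* was thus higher at 12 than at 2 months at these times in the time course and lower in WT and in KO. The times differ between the 2 ages for each gene named here. Over the whole day of the time course, *Apoa1* was not called between 12 and 2 months (log2 fold change 0.23, SE 0.11, adjusted p = 0.183 by edgeR). *Apom* was 170 and 164 CPM at 2 months and 182 and 136 CPM at 12 months in the time course, against 263 and 259 CPM and then 105 and 143 CPM in WT. *Apoa4* was 90.0 and 71.6 CPM at 2 months and 57.1 and 52.4 CPM at 12 months in the time course, against 78.0 and 49.1 CPM and then 110 and 76.4 CPM in WT. *Apob* was higher at 12 than at 2 months at these times in the time course (3813 and 3890 CPM against 3722 and 3121 CPM), in WT, and in KO. These are different ZT at the 2 ages, and at equal ZT of the time course *Apob* was lower at 12 months at 5 of 6 ZT (log2 fold change over the whole day -0.20, SE 0.12, adjusted p = 0.318). In KO, *Apoa4* was 72.9 and 71.4 CPM at 2 months and 253 and 199 CPM at 12 months. In WT, *Apoe* was 25066 and 31592 CPM at 2 months, 22374 and 25287 CPM at 6 months, and 26067 and 26082 CPM at 12 months. *Apoc3* was 2253 and 2998 CPM, 2705 and 2353 CPM, and 2417 and 2538 CPM at these ages in WT. *Saa1* at 6 months was 60.6 and 331 CPM in WT, and 5250.1 to 22385 CPM in the time course.

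**Figure D5:**
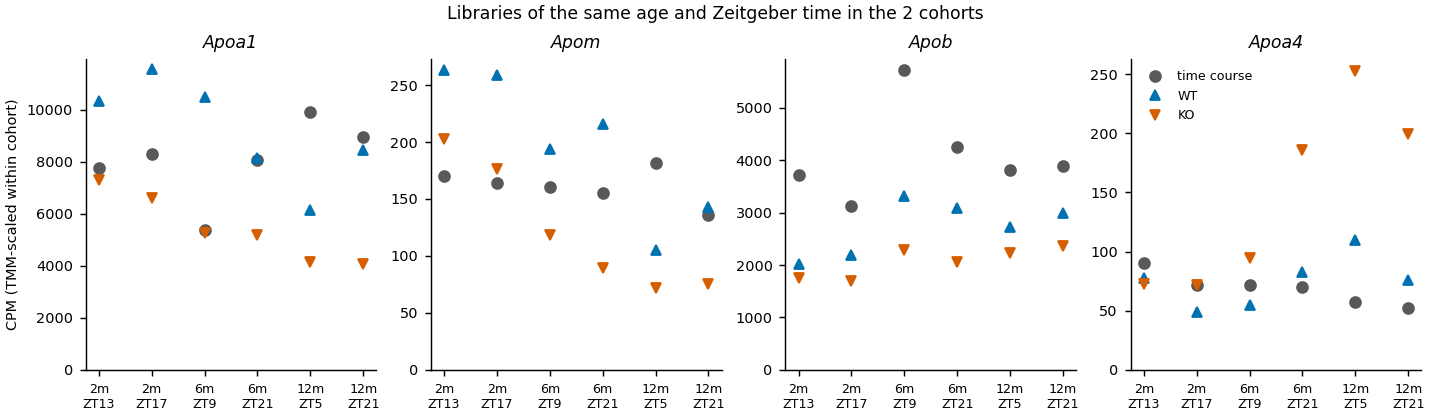
CPM (TMM-scaled within each cohort, y axis from 0) of Apoa1, Apom, Apob, and Apoa4 in the libraries of the same age and Zeitgeber time (x axis) of the time course (circles), WT (upward triangles), and KO (downward triangles). Apoa1 and Apom of WT start above the time course at 2 months, and Apoa4 of KO reaches 253 CPM at 12 months.

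Daily rhythm was tested by comparing the order of the 6 values of an age with 24-h cosine curves peaking at each sampled ZT, with p from all 720 orders (exact permutation test, two-sided). The smallest p this design allows is 0.0333. At 2, 6, and 12 months, 0 of the 10 genes reached it, where 8.41%, 7.99%, and 6.3% of all genes did. The next p of 0.133 was reached by *Apoc3* at 2 months, by *Apoa2* at 6 months, and by *Apoa1*, *Apom*, *Apoe*, and *Apoh* at 12 months. Adjusted over all genes, this p of the exact test was 0.492 at 2 months, 0.525 at 6 months, and 0.617 at 12 months, so none of these genes was called. A cosine fitted within each age by edgeR called 0 of the 10 genes as well (5.13%, 4.85%, and 3.79% of all genes; 0, 1, and 1 of the 10 at an unadjusted p under 0.05), limma-voom 0, and DESeq2 1, *Apoa2* at 6 months.

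*Apoa4* was highest at ZT1 at each age, at 204, 213, and 85.1 CPM, which was 2.89, 3.22, and 1.77 times its lowest value of the day, and the ZT1 library stood clear of the other 5 at 2 and 6 months. *Apoa1*, *Apoa2*, *Apoc1*, *Apoc3*, and *Apoe* were all lowest at ZT9 at 2 months, where *Apob* was highest. This library also had the lowest median deviation of genes with under 1500 bases of exon in the time course, -0.21 on the log2 scale, and the highest of genes with over 6000 bases, 0.11. At 6 months ZT9, *Apoa1*, *Apoa2*, and *Apoc3* were again lowest and *Apob* highest, with deviations of -0.15 and 0.07. At 12 months, *Apoc1* (2868 CPM) and *Apoe* (10646 CPM) were again lowest at ZT9. The other genes named here differed, with *Apoa2* highest at ZT9 (7316 CPM), *Apoa1* lowest at ZT17, *Apoc3* lowest at ZT13, and *Apob* highest at ZT17. The part of transcript length in these values was not tested.

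A 24-h cosine shared by the 3 ages was called in 1 of the 10 genes, *Apom*, where 16.1% of all genes were called. *Apom* had an amplitude of 0.16 on the log2 scale and a peak at ZT3.12 (adjusted p = 0.0493, edgeR), with 193, 182, and 182 CPM at the highest ZT and 151, 146, and 129 CPM at the lowest ZT of the 3 ages. *Apom* was lost when any ZT except ZT9 was left out. *Apoa4* had the largest amplitude of the 10 genes, 0.39, with a peak at ZT2.04, and did not pass (adjusted p = 0.103). The change of rhythm from 2 to 6 and from 2 to 12 months was called in 0 of the 10 genes (0.112% and 0% of all genes), also with DESeq2 and limma-voom, and at an unadjusted p under 0.05 in 0 and 1 of the 10 genes by edgeR.

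Over the 18 time-course libraries, the genes at a mean of at least 10 CPM whose levels were most like those of *Apoa4* were the collagen gene *Col1a1*, the zinc transporter *Slc39a11*, and the kinase *Cdk7*, each at a Pearson r of log2 CPM of 0.80 among 7228 genes compared. These libraries share ages and ZT.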

How the data were processed

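The authors enriched poly(A) RNA, aligned reads to mm10 with HISAT2 after fastp, and deposited counts of reads per gene from featureCounts without normalization; versions and strand setting are not given in the sources used here. All 30 columns were used, and 0 were left out. Genes were matched to GENCODE M21 by symbol in the time course (53775 of 54429) and by Ensembl identifier in the genotype table (55144 of 55471). Tests were fitted to each whole table with edgeR 4.0.16 (R 4.3.3), with TMM factors and filterByExpr, on 13361, 13639, or (age in the genotype libraries) 14097 genes, with Benjamini-Hochberg adjustment over all genes tested and a threshold of 0.05. DESeq2 1.42.0 and limma-voom (limma 3.58.1) were alternatives. For the tests of genotype, WT and KO libraries were blocked by the age and collection that the labels share. Deviations from the group means correlated at 0.0602 to 0.635 within these pairs, and 2 of 6 WT libraries correlated best with their own partner. P-values measure the spread between pairs or time points. Age in the genotype libraries was fitted with genotype as a term and without a block for pairs or a term for collection. Its p-values measure the spread between single libraries. The comparisons of genotype and age by edgeR and the exact rhythm test were first tested on simulated data. The 10 genes and all lists were chosen with earlier results of these data known. Named genes are the 10 genes, up to 3 called genes of each further list with the smallest p, the genes beside the clusters, *Egr1*, and the 3 genes most alike to the gene with the smallest p and to the gene with the widest range; markers were fixed lists. *Alb* and other single markers are named as measures that moved with a group, after their values were seen.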

Additional observations from a re-analysis of the deposited data

Results flagged for a closer look

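In 6 of the 50 groups of 6 libraries examined, the highest or lowest library lay apart from the other 5 by Dixon's 95% criterion, where chance gives about 1 in 20 groups. *Apoa4* at ZT1 was 203.5 CPM at 2 months (the other ZT 70.4 to 112 CPM) and 213 CPM at 6 months (66.3 to 94.7 CPM). *Apoa5* at 2 months ZT13 was 1199.9 CPM (724 to 860.4 CPM). *Apoc1* at 2 months ZT9 was 1729 CPM (2627 to 3117 CPM). *Apoc3* at 6 months ZT21 was 1891 CPM (1343 to 1494 CPM). *Apob* at 12 months ZT13 was 3292 CPM (3813 to 3990 CPM). In addition, *Apoa4* was lower at 12 than at 2 months at each ZT of the time course (median difference -0.70 on the log2 scale, -1.26 to -0.42). In the genotype libraries, it was higher at 12 than at 2 months in each of the 4 combinations of genotype and collection (median 1.06, 0.49 to 1.79). There the 2 ages were collected at different ZT, and the difference between the cohorts was not tested.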

How the results depend on the processing

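Each condition had 1 library, the pooling of mice is not known, and ages of the genotype libraries were collected at different ZT. Of 740 values of single genes under alternatives, 626 kept their direction and side of the threshold, 74 lost and 16 gained a call, and 24 changed sign, all of genes without a call. The causes were not tested except where fewer samples or genes entered a fit. Leaving out the pairs of 2 months L and 12 months H, the 6-month ZT5 library, and the offset for transcript length were chosen after seeing the data.

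For KO against WT (4 of 10 genes), without the replicate block 2 genes were called with additive age and collection and 0 with genotype alone, 0 in the H pairs, 2 in the L pairs, 0 without the pairs of 2 months L and 12 months H, and 1 to 3 when 1 pair was left out. Without the filter or with DESeq2, *Apoh* was added, and without factors *Apob* was lost (adjusted p = 0.0667). Over all genes, 215 calls (107 higher) became 437 without factors (370 higher), where the median of all genes moved to 0.11 on the log2 scale, 636 without the filter, 435 with DESeq2, and 45 to 147 without 1 pair. They became 39 and 21 without the block, 2 at H, 53 at L, and 9 without the 2 pairs. The difference between ages called 1 gene without the filter, *Apoa4*.

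For 6 against 2 months (2), 1 gene was called without the filter, 0 without the ZT block, 0 from the 12 libraries of the 2 ages, 1 without 6-month ZT5, and 0 to 2 without 1 ZT. For 12 against 2 months (1), 2 were called without factors, 3 with DESeq2, 2 with limma-voom, 2 with the length offset, 0 without the block, 2 from the 12 libraries, 2 without 6-month ZT5, and 1 in each fit without 1 ZT. Without factors, 1193 of 1606 genes called between 2 and 12 months were higher, against 883 of 1587, and 1709 of 2359 between 6 and 12 months, against 1175 of 2189. For 12 against 6 months (6), 2 were called without the block, 2 from the 12 libraries, and 1 to 6 without 1 ZT. The shared rhythm (1) called 0 with size factors of DESeq2, 0 without factors, 0 without the filter, 3 with DESeq2 (*Apom*, *Apoc3*, and *Apoe*), and 0 to 1 without 1 ZT. For 12 against 2 months in the genotype libraries (4), 2 to 4 were called without 1 pair, and 2 to 5 over all alternatives. *Apoa5* was added without the filter (adjusted p = 0.0332), with DESeq2 (0.0338), and without the pair of 2 months L (0.0365).

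Log2 fold changes that changed sign were, for KO against WT without factors, *Apoa2* 0.00113, *Apoa5* 0.103, *Apoc3* 0.0574, and *Apoe* 0.104, in the H pairs *Apoc3* 0.0236 and *Apoe* 0.145, and without the 2 pairs *Apoc3* 0.0164 and *Apoe* 0.0319. Without 1 pair, *Apoa5* was at -0.0505 to 0.0063, *Apoc3* at -0.119 to 0.00918, and *Apoe* at -0.0684 to 0.0606. In the genotype libraries, *Apoc1* was at -0.0410 with the offset and -0.110 to 0.280 without 1 pair, and *Apoc3* at 0.0178 without factors. For 6 against 2 months, *Apoh* was at -0.0458 with the offset and -0.0683 to 0.0610 without 1 ZT. For 12 against 2 months, *Apoc3* was at 0.0250 without factors and -0.118 to 0.0175 without 1 ZT, *Apoe* at -0.000388 with the offset, and *Apoa5* at -0.00489 to 0.220 without 1 ZT. For 12 against 6 months, *Apob* was at -0.150 to 0.0253 without 1 ZT.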
